A study of Apis mellifera with 6 samples.

Results

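The genes described here are the antioxidant and glutathione enzymes that carry a name of their own in the deposited tables of the honey bee (Apis mellifera) midgut. They were picked by symbol alone, ignoring case: Sod1, Sod2 and Cat, and every symbol that starts with Gst, Gtpx, Tpx or Trxr. The rule found 10 of the 10041 listed genes, namely Sod1, Sod2, Cat, Trxr-1, Tpx-3, Tpx-4, Gtpx1, GstD1, GstS1 and GstS4. Most honey bee genes are listed only under a LOC number, so enzymes of the same families without a symbol are not in this list.

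Adult bees caught at the landing board were fed sucrose for 24 h, with 200 µM halofuginone in 0.5% DMSO (3 libraries, Halofuginone 2 to 4) or with 0.5% DMSO alone (3 libraries, Control 1 to 3). By the study's methods each library came from the midgut of 1 bee, the bees of an experiment shared a colony, and they were outbred, caged field bees of unstated age. Halofuginone inhibits prolyl-tRNA synthetase and was used to activate the Integrated Stress Response (ISR). Poly(A) RNA was sequenced, and each gene's level is given as a normalised read count, which is its read count divided by the size factor of its library.

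Cells make superoxide and hydrogen peroxide as by-products of respiration and of detoxification. Superoxide dismutases turn superoxide into hydrogen peroxide, and catalase, peroxiredoxins and glutathione peroxidases remove the peroxide. Peroxiredoxins draw their reducing power from thioredoxin, which thioredoxin reductase recharges with NADPH. In Drosophila melanogaster the same reductase also keeps glutathione reduced, since the fly lacks a glutathione reductase. Glutathione S-transferases (GST) join glutathione to electrophiles such as plant toxins, pesticides and the products of lipid peroxidation, and the midgut is a main site of this work in insects.

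The libraries held 23305398 to 26278866 recovered reads over the listed genes, and nothing in the totals parted the groups. The 10 genes with most reads took 30.2% to 32.2% of these reads in controls and 23.2% to 29.3% after halofuginone. A gene's share of all listed reads, given below for some enzymes, depends on this as well as on the gene itself. Of the marker symbols examined, Hbg2, an alpha-glucosidase that serves here as a midgut marker, was at 546506 to 935502 in the 6 libraries, while Vha16, a subunit of the proton pump that energises the midgut epithelium, was lower after halofuginone (7558 to 7898 in controls, 3965 to 4276 after treatment, log2 fold change −0.92 ± 0.10 SE, limma adjusted p = 0.00789). The 7 muscle symbols summed to 5340 to 8916 in controls and to 4750 to 8532 after halofuginone. The 6 fat body and haemolymph symbols summed to 996 to 1469 and to 1055 to 1302, and the 7 nerve and eye symbols to 1089 to 1505 and to 911 to 1504. None of these 3 lists held a gene past the adjusted p, but the sums join genes that moved in different directions. Tsf1 was higher after halofuginone (group means 363 and 659), while HEX70b, Hex110, Hex70a, Hex70c and Vg were lower in mean. TpnCIIIb was at 37.3 to 51.3 in controls and 12.9 to 21.5 after halofuginone (limma adjusted p = 0.0590). TpnCI and TpnCIIIa were also lower in mean, and TpnCIIa, TpnCIIb, TpnI and TpnT higher. The 3 head gland symbols summed to 2866 to 4974 in controls and to 2160 to 3035 after halofuginone, and 1 of them, the alpha-glucosidase Hbg3, was lower (log2 fold change −1.57 ± 0.18 SE, limma adjusted p = 0.00856). No marker was at 0 in any library, and no cuticle or venom gland symbol of the lists was found. The part of any of these in the results was not tested. In whole midguts a change in the number of cells of a type and a change in RNA per cell cannot be told apart.

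The question was how the transcripts of these enzymes respond when bees are fed halofuginone. Of the 10 genes, Trxr-1 was the one called, with about 2.8 times more reads after halofuginone. Cat was higher by a smaller factor and did not pass the test over all genes. The superoxide dismutases, peroxiredoxins, Gtpx1 and GSTs had limma log2 fold changes between −0.30 and 0.33, but larger changes were not excluded for each of them. The interval of GstS4, which had few reads, ran from −2.30 to 2.11, and edgeR gave it −0.96. Those of GstS1 (−0.99 to 0.40) and GstD1 (−0.24 to 0.90) were also wide. A call needed a limma adjusted p below 0.05 over all 10041 genes and a log2 fold change above 1 in size, the thresholds of the study. By this rule 1 of the 10 enzymes was called, where 2.37% of all genes were. At the adjusted p alone 1 of 10 passed, against 6.88% of all genes. The median log2 fold change was 0.10 over the 10 enzymes and −0.01 over all genes, with 6 enzymes above 0 and 4 below. In 3 enzymes, Trxr-1, Cat and Sod1, every treated library lay above every control library. Of all genes, 15.9% were parted upwards and 14.7% downwards in this way. With 10 genes, counts of 1 and 3 are not read as particular to the enzymes.

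**Figure D1:**
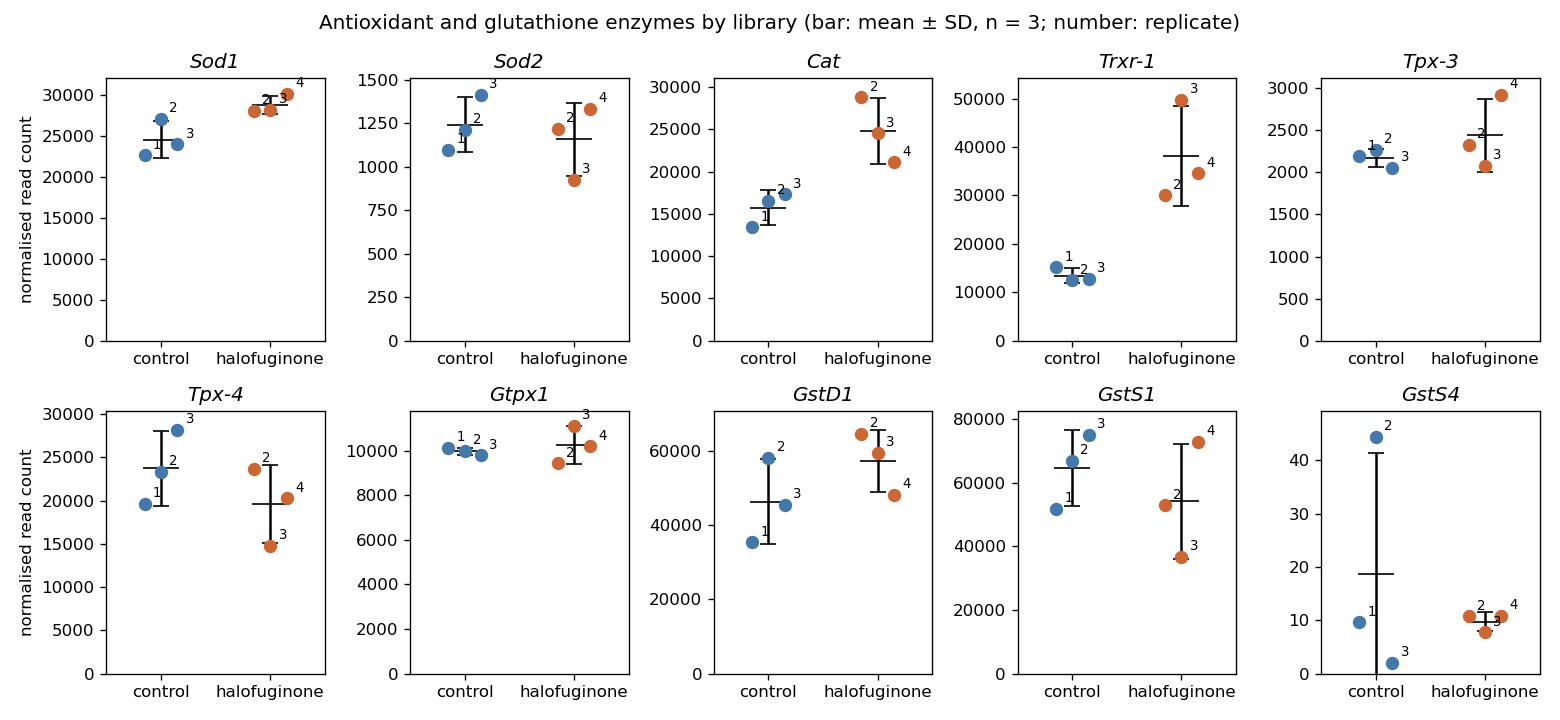
Normalised read count (vertical axis, from 0) of each of the 10 enzymes in the 3 control and 3 halofuginone libraries. Points are libraries marked with their replicate number, and bars are the mean ± SD (n = 3), with the lower bar of GstS4 ending at the axis. The 3 halofuginone points of Trxr-1 lie between 30035 and 49747, all above the controls, which lie between 12468 and 15170.

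Trxr-1 encodes thioredoxin reductase, the flavoenzyme that recharges thioredoxin. Its normalised read count was 15170, 12468 and 12708 in Control 1, 2 and 3, and 30035, 49747 and 34603 in Halofuginone 2, 3 and 4. The groups were far apart, and the lowest treated library was well above the highest control. Control bees averaged 13449 ± 1496 and treated bees 38128 ± 10318 (SD, n = 3). Limma gave a log2 fold change of 1.48 ± 0.22 (SE) with a 95% interval of 0.97 to 1.98 and an adjusted p of 0.0142. On the linear scale this is 2.78-fold, with an interval of 1.95-fold to 3.96-fold. The lower end of the interval lies just under the fold threshold.

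The share of all listed reads that fell on Trxr-1 was 0.0481% to 0.0611% in controls and 0.128% to 0.230% after halofuginone. Read against Gtpx1, the enzyme with the smallest spread within groups, Trxr-1 had a log2 ratio of 0.58, 0.32 and 0.38 in Control 1, 2 and 3 and of 1.67, 2.16 and 1.76 in Halofuginone 2, 3 and 4. This ratio was formed after the values had been seen and was not tested. It is taken within a library, so no size factor enters it, and the groups do not overlap in it. Gtpx1 itself differed little between the groups (limma log2 fold change 0.04). The ratio is therefore not separate support for the change in Trxr-1. Halofuginone 3 had the highest Trxr-1 value of all, and without that library the log2 fold change was 1.27 (limma adjusted p = 0.0245). The call did not hold without Control 2 (adjusted p = 0.0743) or without Control 3 (0.0761), with log2 fold changes of 1.42 and 1.44. In those fits the number of genes called over all genes also fell, from 238 to 63 and to 47. The call of Trxr-1 was also lost with the replicate block on replicates 2 and 3 (0.0715), with those libraries and no block (0.0559) and with a block by deposited file (0.0776). Over all 21 alternatives the log2 fold change stayed between 1.27 and 1.63 and the adjusted p between 5.15e-09 and 0.0776.

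In the gene table of a later assembly, Amel_HAv3.1, the span of Trxr-1 overlaps that of LOC724327. LOC724327 had 606 to 682 normalised reads in controls and 604 to 690 after halofuginone, and did not pass (limma log2 fold change −0.03 ± 0.12 SE, adjusted p = 0.918). RefSeq lists 3 proteins for Trxr-1 in the same table, and the counts here cover the whole gene, so nothing can be said of single isoforms.

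The peroxidases that take electrons from thioredoxin were not called. Tpx-3 and Tpx-4 carry symbols of thioredoxin peroxidases, the peroxiredoxins that reduce hydrogen peroxide at the expense of thioredoxin. Tpx-3 was at 2194, 2271 and 2056 in Control 1, 2 and 3 and at 2327, 2082 and 2925 in Halofuginone 2, 3 and 4. The groups overlapped, with Control 3 lowest and Halofuginone 4 highest. By limma the change was 0.16 ± 0.15 on the log2 scale (SE, adjusted p = 0.567), with a 95% interval of −0.19 to 0.50. With single libraries left out it ran from 0.019 (without Halofuginone 4) to 0.26 (without Halofuginone 3).

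Tpx-4 was at 19610, 23360 and 28212 in Control 1, 2 and 3 and at 23685, 14741 and 20275 in Halofuginone 2, 3 and 4. Halofuginone 3 was the lowest library and Control 3 the highest, and the other 4 were intermixed. The fitted log2 change was −0.29 ± 0.23 (SE), with a 95% interval of −0.82 to 0.24 and a limma adjusted p of 0.486. It was −0.099 without Halofuginone 3, −0.16 without Control 3 and −0.44 without Halofuginone 2. The span of Tpx-4 overlaps that of LOC102656448 in the later assembly. LOC102656448 had 447.3 to 742.9 normalised reads in controls and 329.7 to 446.6 after halofuginone, so the groups were narrowly parted, downwards. It did not pass (limma log2 fold change −0.52 ± 0.22 SE, adjusted p = 0.213). The intervals of Tpx-3 and Tpx-4 both lie below that of Trxr-1, whose lower end is 0.97. The differences between the fold changes were not tested.

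Gtpx1 carries the symbol of a glutathione peroxidase homologue. Such peroxidases reduce hydrogen peroxide and lipid peroxides, and those of Drosophila melanogaster use thioredoxin in place of glutathione. Gtpx1 was at 10115, 9998 and 9792 in Control 1, 2 and 3 and at 9423, 11111 and 10184 in Halofuginone 2, 3 and 4. The control libraries were nearly equal, and the treated libraries lay on either side of them. The group means were 9968 ± 163 and 10239 ± 846 (SD, n = 3). Its log2 change of 0.04 ± 0.12 (SE) had a 95% interval of −0.24 to 0.31, and the limma adjusted p was 0.892. A change of more than 1.24-fold upwards or to less than 0.846 of the control level lies outside it. Gtpx1 overlaps LOC411982 in the later assembly, a gene with 128 to 259 normalised reads over the 6 libraries. LOC411982 did not pass (limma log2 fold change −0.38 ± 0.25 SE, adjusted p = 0.396), and its groups overlapped.

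**Figure D2:**
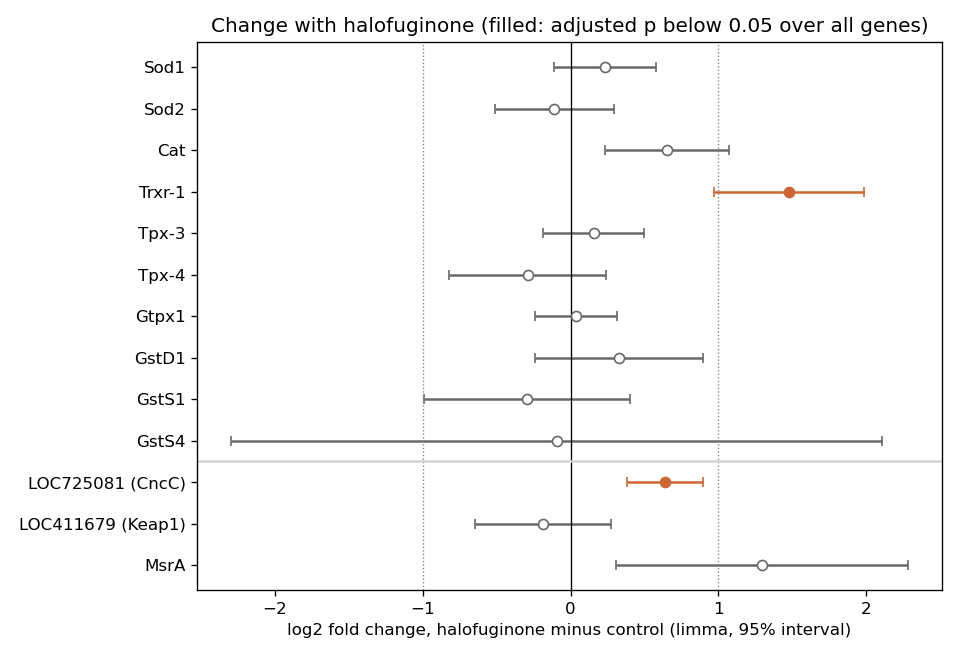
Log2 fold change of halofuginone minus control (horizontal axis) with its 95% interval from limma for the 10 enzymes and, under the grey line, 3 other redox genes. Filled points have an adjusted p below 0.05 over all genes, which holds for Trxr-1 (1.48) and LOC725081 (0.64), and dotted lines mark a log2 fold change of −1 and 1.

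Catalase breaks down hydrogen peroxide without a reducing partner. Cat was at 13381, 16527 and 17316 normalised reads in Control 1, 2 and 3 and at 28771, 24512 and 21067 in Halofuginone 2, 3 and 4. All treated libraries were above all control libraries. The means were 15741 ± 2082 and 24783 ± 3859 (SD, n = 3), and the log2 fold change was 0.65 ± 0.18 (SE), which is 1.57-fold with a 95% interval of 1.18-fold to 2.10-fold. The unadjusted limma p was 0.00767 and the adjusted p over all genes 0.0753, so the difference did not pass. At the unadjusted threshold 2 of the 10 enzymes passed, Trxr-1 and Cat, where 23.7% of all genes did. With the Wald test of DESeq2 on the recovered reads, the test named in the study's methods, the adjusted p of Cat was 0.00617. Over the 21 alternatives it ran from 0.00617 to 0.221, and in the other 20 it did not pass.

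**Figure D3:**
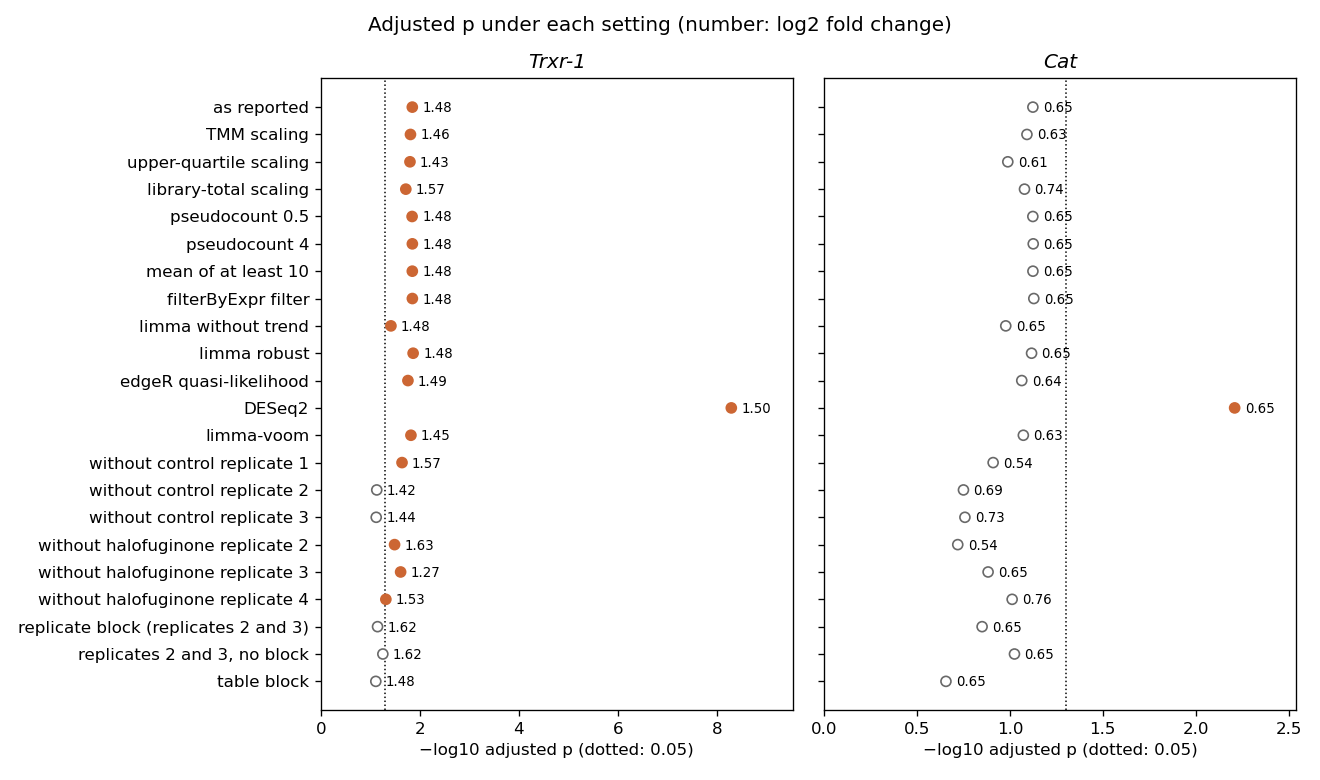
Adjusted p (horizontal axis, as −log10) of Trxr-1 and Cat for the reported fit and its 21 alternatives, with the log2 fold change printed beside each point. Filled points pass 0.05, marked by the dotted line. Trxr-1 passed in 16 of the 21 alternatives and Cat in 1, and every point has a log2 fold change above 0.

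Superoxide dismutases supply the peroxide that catalase and the peroxiredoxins remove. Sod1 is the cytosolic copper and zinc enzyme, and Sod2 the manganese enzyme of mitochondria. Sod1 was at 22639, 27138 and 23985 in Control 1, 2 and 3 and at 28091, 28197 and 30149 in Halofuginone 2, 3 and 4. The treated libraries were all higher than the controls, though Halofuginone 2 and Control 2 were close to each other. On the log2 scale the change was 0.23 ± 0.15 (SE), with a 95% interval of −0.11 to 0.58 and a limma adjusted p of 0.384, so a rise of the size seen in Trxr-1 lies outside the interval.

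Sod2 was at 1099, 1212 and 1413 in Control 1, 2 and 3 and at 1217, 926 and 1332 in Halofuginone 2, 3 and 4. The groups overlapped. A log2 change of −0.11 ± 0.17 (SE) was fitted, with a 95% interval of −0.51 to 0.29 and a limma adjusted p of 0.749. Without Halofuginone 3 the sign turned (0.044), without Control 3 the change was −0.012, and without Halofuginone 4 it was −0.22.

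Ratios between these 3 enzymes within a library do not depend on scaling, and 3 of them were put to an exact permutation test, two-sided. With 3 libraries against 3 the smallest p is 0.1. The log2 ratio of Cat to Sod2 was 3.61, 3.77 and 3.62 in Control 1, 2 and 3 and 4.56, 4.73 and 3.98 in Halofuginone 2, 3 and 4. It was higher in 3 of 3 treated libraries than in any control, by 0.76 on average (exact permutation p = 0.1, Benjamini-Hochberg over the 3 ratios 0.15). The log2 ratio of Sod2 to Sod1 was −4.36, −4.48 and −4.09 in the controls and −4.53, −4.93 and −4.50 after halofuginone. It was lower in 3 of 3 treated libraries, with a mean difference of −0.34 (exact permutation p = 0.1, adjusted 0.15), although Halofuginone 4 and Control 2 were nearly equal. Without Halofuginone 3 the difference was −0.20. For Cat to Sod1 the groups overlapped, and the mean difference was 0.42 (exact permutation p = 0.2, adjusted 0.2). No ratio could pass 0.05 in the exact permutation test.

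GSTs were the most numerous family, with 3 genes. GstD1 belongs to the delta class, which in insects is known for detoxification of insecticides, and GstS1 and GstS4 to the sigma class, whose Drosophila melanogaster member acts on products of lipid peroxidation. GstD1 was at 35304, 58166 and 45424 in Control 1, 2 and 3 and at 64472, 59386 and 48170 in Halofuginone 2, 3 and 4. Control 2 and Halofuginone 3 were close, and Control 1 stood lowest. Limma fitted 0.33 ± 0.24 on the log2 scale (SE), with a 95% interval of −0.24 to 0.90 and an adjusted p of 0.461. This value was 0.15 without Control 1 and 0.51 without Control 2.

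GstS1 was at 51753, 66873 and 75069 in Control 1, 2 and 3 and at 52793, 36572 and 72822 in Halofuginone 2, 3 and 4. Control 1 was close to Halofuginone 2 and Control 3 to Halofuginone 4, and Halofuginone 3 was lowest of all. Its log2 change of −0.30 ± 0.30 (SE) had a wide 95% interval, −0.99 to 0.40, and the limma adjusted p was 0.598. Over the fits that left out 1 library each, the change ran from −0.54 (without Halofuginone 4) to −0.041 (without Halofuginone 3).

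The balance between these GSTs varied from bee to bee. The ratio of GstD1 to GstS1 reads was 0.682, 0.870 and 0.605 in the controls and 1.22, 1.62 and 0.661 in Halofuginone 2, 3 and 4, so Halofuginone 4 lay among the controls. The 3 GSTs together took 0.351% to 0.482% of all listed reads in controls and 0.444% to 0.499% after halofuginone. These ratios and sums were formed after the values had been seen and were not tested.

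GstS4 was the one enzyme with few reads. It had 9, 45 and 2 reads in Control 1, 2 and 3 and 11, 9 and 10 reads in Halofuginone 2, 3 and 4. Control 2 stood apart from the other 5 libraries, and its exact 95% Poisson interval, which covers counting error only, was 32.8 to 60.2 reads, against 5.49 to 19.7 for Halofuginone 2, the next highest. Limma fitted −0.09 ± 0.94 on the log2 scale (SE, adjusted p = 0.967), with a 95% interval of −2.30 to 2.11, which takes in changes of several fold in either direction. The count tests gave larger values, −0.96 in edgeR (adjusted p = 0.565) and −0.94 in DESeq2, which returned no adjusted p. Without Control 2 the limma value turned to 0.91, and without Control 3 it was −1.04. The other 9 enzymes had at least 1032 reads in every library.

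The spread between bees of one group differed widely among the enzymes. The within-group SD on the log2 scale, pooled over the groups, had a median of 0.26 over the 10 enzymes and 0.25 over all genes. Gtpx1 (0.09) and Sod1 (0.10) were the steadiest, and 5.61% and 9.43% of all genes had a smaller SD. GstS4, with few reads, had the largest SD (1.39), and 98.1% of all genes had a smaller one. GstS1 (0.40), Tpx-4 (0.31) and GstD1 (0.30) came next, and 71.4%, 60.1% and 58.3% of all genes had a smaller SD. Genes were not matched by level in these comparisons. For Trxr-1 the SD was 0.29, and its coefficient of variation was 11.1% in controls and 27.1% after halofuginone (n = 3 each). For Gtpx1 these values were 1.64% and 8.26%, and for Sod1 9.39% and 4.02%.

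**Figure D4:**
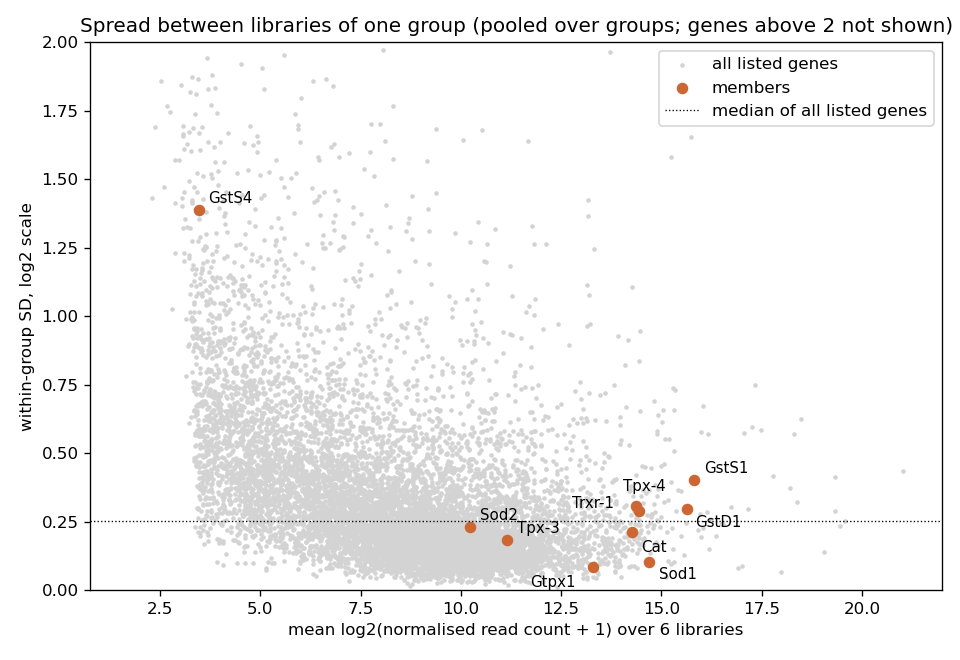
Within-group SD on the log2 scale (vertical axis) against mean log2(normalised read count + 1) over the 6 libraries (horizontal axis) for all listed genes (grey) and the 10 enzymes (orange). Gtpx1 (0.09) and Sod1 (0.10) lie near the lower edge, GstS4 (1.39) sits among the low, variable genes, and the dotted line is the median of all genes (0.25).

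Halofuginone 3 had the lowest value of the 6 libraries for GstS1, Sod2 and Tpx-4 and the highest for Trxr-1 and Gtpx1. Of all genes, 20.3% were lowest and 20.8% highest in that library. GstS1 and Sod2 ranked the libraries almost alike, from Halofuginone 3 and Control 1 at the low end to Halofuginone 4 and Control 3 at the high end. Tpx-4 also had Halofuginone 3 lowest and Control 3 highest. This likeness was noticed in the values and was not tested.

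Other redox genes, and with them the yolk protein gene Vg, were taken from a list of symbols and of the pair of genes that the study names. Vg is also among the fat body and haemolymph symbols above. The list held 4 genes besides the enzymes above, and 1 of them passed the adjusted p, upwards, where 4.63% of all genes did. That gene was LOC725081, which the study identifies as CncC. CncC is the homologue of NRF2, the transcription factor that drives antioxidant and detoxification genes in flies and mammals. LOC725081 was at 5051, 5168 and 5598 in Control 1, 2 and 3 and at 7857, 8743 and 8058 in Halofuginone 2, 3 and 4. The groups were clearly parted, and the spread within each was small. The change was 0.64 ± 0.11 on the log2 scale (SE, limma adjusted p = 0.0232), or 1.56-fold, with a 95% interval on the log2 scale of 0.38 to 0.90, below the fold threshold. The adjusted p was passed in 13 of 21 alternatives and ran from 6.88e-06 to 0.123. The threshold was missed on leaving out Control 2 (0.107) or Control 3 (0.0976), on leaving out Halofuginone 2 (0.0625) or Halofuginone 4 (0.0694), and by limma with no variance trend (0.0561). It was also missed with the replicate block (0.108), with a block by deposited file (0.123) and with replicates 2 and 3 alone (0.0723).

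LOC411679, identified by the study as Keap1, encodes the adaptor that marks NRF2 for degradation. LOC411679 was at 829, 938 and 912 in Control 1, 2 and 3 and at 589, 984 and 832 in Halofuginone 2, 3 and 4, with Halofuginone 2 low and the rest intermixed. On the log2 scale it differed by −0.19 ± 0.19 (SE, limma adjusted p = 0.614), and the sign turned without Halofuginone 2 (0.021).

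MsrA, a methionine sulfoxide reductase that repairs oxidised methionine with electrons from thioredoxin, was at 994, 727 and 558 in Control 1, 2 and 3 and at 958, 2021 and 3079 in Halofuginone 2, 3 and 4. Halofuginone 2 lay within the controls, and the other treated libraries were far above them. The mean difference, 1.29 ± 0.42 on the log2 scale (SE), did not pass (limma adjusted p = 0.117). Without Halofuginone 2 it was 1.75 and the adjusted p 0.0452, and DESeq2 gave an adjusted p of 0.00616. Vg, the yolk protein vitellogenin, which also acts as an antioxidant in bees, was at 2.58 to 102 normalised reads over the 6 libraries, with 102 in Control 2 alone and no more than 28.0 elsewhere. It did not pass either, at −1.20 ± 1.12 on the log2 scale (SE, limma adjusted p = 0.566), and at −0.13 without Control 2.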

How the data were processed

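The 3 deposited tables each hold 1 control and 1 halofuginone column for 10041 genes, and 0 columns were left unused. Per the study's methods the authors trimmed paired reads of 150 bp, mapped them to Apis mellifera Amel 4.5 and counted reads per gene. The submitters' processing notes name Trimmomatic 0.36, STAR, Subread and DESeq2. How strand and multi-mapped reads were handled is not stated there. The deposited values are a normalised signal, read counts that the authors divided by a size factor per library (0.927 to 1.16). In every library 100% of values were whole multiples of the smallest within 0.01 reads, and the median-of-ratios method on the recovered reads returned the same factors. The listed gene with the fewest reads had 61 in all, which is an observed minimum and not a cut-off set here. Genes that are not listed could not be analysed.

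All genes entered limma (3.58.1, R 4.3.3) on log2(value + 1), fitting group alone, and eBayes used a variance trend. Fold changes are on that scale, and those of low genes depend on the pseudocount. Benjamini-Hochberg adjustment ran over all genes, and intervals are at 95%. Ratios were compared by exact permutation (scipy 1.17.1). DESeq2 (1.42.0), edgeR's quasi-likelihood test (4.0.16) and limma-voom ran on the recovered reads as alternatives. The limma fit was also run on counts simulated from these data, with 200 genes changed 3-fold up or down. It called 177 genes, of which 172 were changed genes and 5 were not. The simulated scatter followed edgeR's dispersion trend rather than each gene's own spread, and as many genes were raised as lowered. These counts are therefore not error rates for the real libraries. Smaller changes were not simulated.

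The enzymes and lists were chosen with earlier results of these data known. Every enzyme is named, and of the list of other redox genes those past the adjusted p, with LOC725081 and LOC411679; MsrA and Vg were added because the list is short, after their values were seen. No transcript lengths of the build were used, so genes are not ranked by level. Ratios and sums over genes are compared between libraries only, and their absolute size depends on transcript length. Overlaps were read from Amel_HAv3.1, in which all 10 symbols were found, and may differ in Amel 4.5. The bees are separate animals fed in cages whose number is not stated. Other alternatives were 3 scalings, 2 pseudocounts, 2 filters, limma without trend or robust, blocks by replicate number and by table, and leaving out each library.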

Additional observations from a re-analysis of the deposited data

How the results depend on the processing

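For the changes below the cause was not tested unless given. The number of called genes (238) was 385 with DESeq2, and 691 genes past the adjusted p became 1400 with DESeq2, 263 without the variance trend and 265 with replicates 2 and 3 alone, an alternative chosen after seeing the data. With 1 library left out these counts ran from 47 to 277 and from 48 to 657, where fewer samples entered. With the replicate block, on replicates 2 and 3, 3 genes were called and 3 passed the adjusted p, and with libraries of one deposited file as a block, 7 were called and 7 passed. Deviations of same-numbered libraries correlated at 0.07 and −0.03 across genes. Those of libraries in one deposited file correlated at −0.18, −0.15 and −0.11. Neither the numbers nor the files are thus shown to pair the bees.

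Of the 10 enzymes, 0 were called and 0 passed the adjusted p with the replicate block, the file block or replicates 2 and 3 alone, and 2 passed with DESeq2. With 1 library left out 0 to 1 were called and 0 to 1 passed. Trxr-1 had a log2 fold change of 1.62 with the replicate block (adjusted p = 0.0715) and 1.62 without a block on the same libraries (0.0559), 1.48 with the file block (0.0776), and 1.27 to 1.63 with 1 library left out. Of the other redox genes 0 passed without the trend, with either block or with replicates 2 and 3 alone, 2 with DESeq2, and 0 to 1 with 1 library left out. Signs turned for Gtpx1 with upper-quartile scaling (−0.0075), and with 1 library left out for Gtpx1 (−0.025 to 0.094), GstS4 (−1.04 to 0.91), Sod2 (−0.22 to 0.044) and LOC411679 (−0.35 to 0.021). GstS4 was the one enzyme with fewer than 1032 reads in any library. For the ratios of Cat to Sod2 and of Sod2 to Sod1 the groups did not overlap, so leaving out 1 library could not turn their direction. For Cat to Sod1, where they overlapped, the difference ran from 0.29 to 0.56 with 1 library left out. Adding 1 to the values hardly moved the ratios, since the values are far above 1.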
